A study of Ovis aries with 26 samples.

Results

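Alpha cells are the glucagon-secreting cells of the pancreatic islets. They were picked from single-cell RNA-seq libraries of fetal and newborn sheep pancreas as kept barcodes with at least 3 UMIs (unique molecular identifiers, each counting 1 captured RNA molecule) of CHGA, at least 1 UMI of SCGN, INSM1 or ISL1, and GCG at 10000 CPM or more (a relative count, in which 10000 is 1% of the cell's UMIs) and above both SST and PPY. A barcode was kept with more than 200 and fewer than 6000 detected genes and less than 25% of its UMIs from mitochondrial genes. The rule found 4450 alpha cells among 79510 kept cells of 109501 barcodes, and no barcode was an alpha cell in more than 1 library. The same rule with the other hormones gave 583 delta cells (SST highest) and 568 PP cells (PPY highest), while 2735 cells passed the CHGA part but were low in all 3 hormones, and 1 cell was a tie. These 8337 cells together are called endocrine cells here.

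Glucagon, cut from the product of GCG by the prohormone convertase PCSK2 in secretory granules, makes the liver release glucose when blood glucose falls. Alpha cells arise from endocrine progenitors of the pancreatic epithelium under transcription factors such as PAX6 and FOXA2, and they are among the first hormone cells to appear in the fetus. Their granules also hold granins (CHGA, SCG2, SCG3 and SCG5), and TTR, the thyroid hormone carrier transthyretin, is a classic alpha cell product.

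The study set sheep that lack CFTR, the chloride channel mutated in cystic fibrosis (CF, CFTR-/-), against controls at 80 days and 120 days of gestation and at term, in 26 libraries of 23 animals. The control group at 80 days (WT) held 4 males, of which donors 2 and 4 are labelled HZ, and those at 120 days and at term held 3 and 4 animals, each with 1 female. The CF groups were 3 males at 80 days, 4 males and 2 females at 120 days, and at term 2 females and 1 male. Per the study's methods the CF males of every age were clones of 1 fibroblast line, while WT, HZ (CFTR+/-) and CF female animals were naturally bred, so CF at term joins 1 clone and 2 naturally bred lambs. Animal numbers there point to shared pregnancies for donors 2 to 4 of WT and donors 2 and 3 of CF at 80 days, and at 120 days for donors 1 and 2 of WT, donors 2 and 3 of the CF males and both CF females, so sex, breeding and pregnancy cannot be told apart from genotype or age in these groups. Animals were the replicates. UMIs of all alpha cells of an animal were summed, and 20 animals with at least 20 alpha cells entered the gene tests.

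Library totals ran from 7841217 to 171256169 UMIs, with 943 to 9543 kept cells. A pair of animals had no alpha cell, donor 3 of the CF males at 120 days and donor 1 of the WT group at term, and donor 4 of the WT group at term had 19. The median alpha cell had 13661.5 to 25828.5 UMIs per animal at 80 days and 6316 to 12031 among the animals tested at term. The share of mitochondrial UMIs was 5.31% to 6.48% at 80 days and 7.27% to 9.26% at term. Depth, mitochondrial share and age moved together, and their part in the age differences below was not tested.

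The label is described here with genes that the rule did not use. TTR, IRX1, GPR119 and IRX2 stood near the top when genes were ranked by their lead over the other endocrine classes in these same data. Their lead is therefore no check of the label. TTR stood at 18393 ± 6205 CPM (mean ± SD over 20 animals), against 3092 in delta cells, 4527 in PP cells, 4628 in the endocrine cells low in hormone and 130 in the kept cells outside the endocrine group. It was higher in the alpha cells than in the other class of the same animal in 13 of 13 animals for delta cells, 8 of 8 for PP cells and 19 of 19 for the low-hormone cells. The homeobox gene IRX1 averaged 71.3 CPM in alpha cells and 7.19 or less in each other class. IRX2, listed under its gene number and named through RefSeq, averaged 249 CPM against 71.3 or less. GPR119, a lipid-sensing receptor known from islet and gut endocrine cells, averaged 866 CPM against 124 or less. DPP4 and ETV1, also outside the rule, were higher in PP cells (241 and 766 CPM) than in alpha cells (226 and 477 CPM). The alpha means cover 20 animals, the others only 13 animals for delta, 8 for PP and 19 for low-hormone cells. These means are therefore not matched by animal. Within the same 8 animals the log2 lead over PP cells was 1.82 for TTR, 2.21 for IRX1, 1.18 for IRX2 and 1.79 for GPR119. These class levels are a description without a test, since the classes were cut from the same cells.

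**Figure D1:**
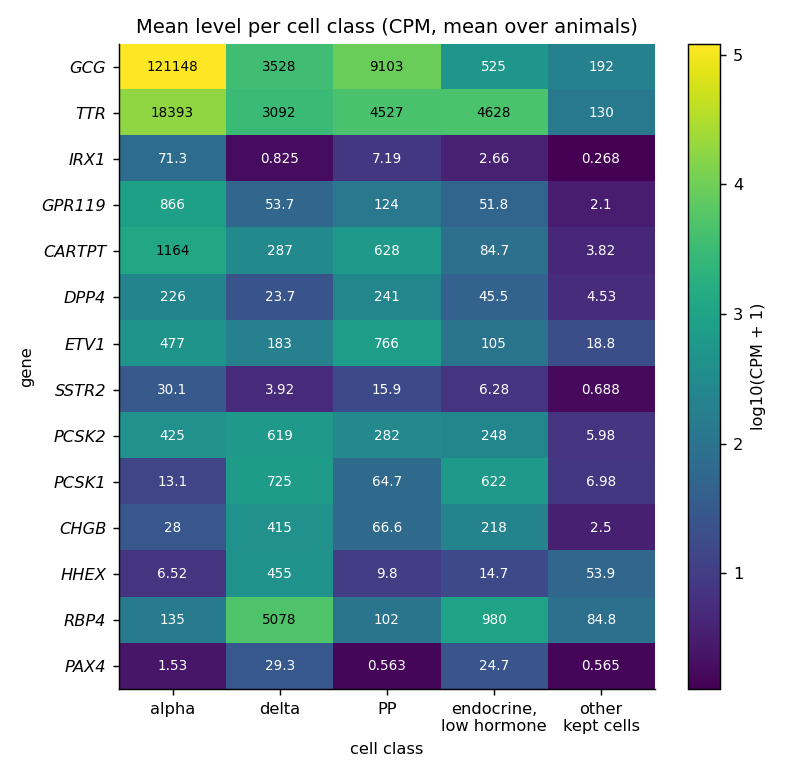
Mean CPM of 14 genes (rows) in alpha, delta and PP cells, endocrine cells low in hormone and other kept cells (columns). Means are over 20, 13, 8, 19 and 20 animals in that order, so the columns are not matched by animal. Colour is log10(CPM + 1) and the numbers are the means. GCG, TTR, IRX1, GPR119, CARTPT and SSTR2 are highest in the alpha column, whereas DPP4 and ETV1 are highest in PP cells and PCSK1, CHGB, HHEX, RBP4 and PAX4 are lower in alpha than in delta cells.

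Several genes of delta or low-hormone cells were low in alpha cells. PCSK1, the convertase that cuts proinsulin and makes GLP-1 rather than glucagon, was at 13.1 CPM in alpha cells, 725 in delta cells and 622 in the low-hormone cells, while PCSK2 was at 425 CPM against 619 and 248. CHGB, a granin, was at 28.0 CPM against 415 in delta cells. HHEX, the delta cell transcription factor, was at 6.52 CPM against 455, and the retinol carrier RBP4 was at 135 CPM against 5078. PP cells were low in the same genes, with 64.7 CPM of PCSK1, 66.6 of CHGB, 9.80 of HHEX and 102 of RBP4. The zinc transporter SLC30A8 was near 0 (0.72 CPM), and IAPP had no UMI in any alpha cell sum. Among receptors, the somatostatin receptor SSTR2 (30.1 CPM) and the GIP receptor GIPR (30.8 CPM) were above the other classes, whereas the glucagon receptor GCGR was at 3.70 CPM, below the 28.1 of the low-hormone cells.

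GCG itself chose the cells, so its level is given without a test. The median alpha cell had GCG at 108507 CPM. The lowest cell inside the limit had 10034 CPM and the highest just outside 9962, with 163 alpha cells between 10000 and 20000 and 95 low-hormone cells between 5000 and 10000. As a share of all UMIs of an animal's alpha cells, GCG made up 20.1%, 21.4%, 19.3% and 17.0% in WT and 14.4%, 14.7% and 12.8% in CF fetuses at 80 days. At 120 days the shares were 15.9%, 12.5% and 9.23% in WT, 9.04%, 6.17% and 12.4% in CF males and 12.7% and 10.6% in CF females. At term they were 8.50% and 7.98% in WT and 3.84%, 3.94% and 9.90% in CF lambs. Each genotype thus had its highest shares at 80 days, where WT and CF did not overlap, while they did at 120 days and at term. CHGA, another gene of the rule, went from 1540 to 2324 CPM at 80 days to 3515 to 9780 at term among the animals tested. GCG RNA was also found outside: kept cells outside the endocrine group averaged 192 CPM, and 83.1% to 97.6% of those cells held a GCG UMI in the WT fetuses at 80 days, against 0.555% to 38.9% in the WT libraries at term.

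**Figure D2:**
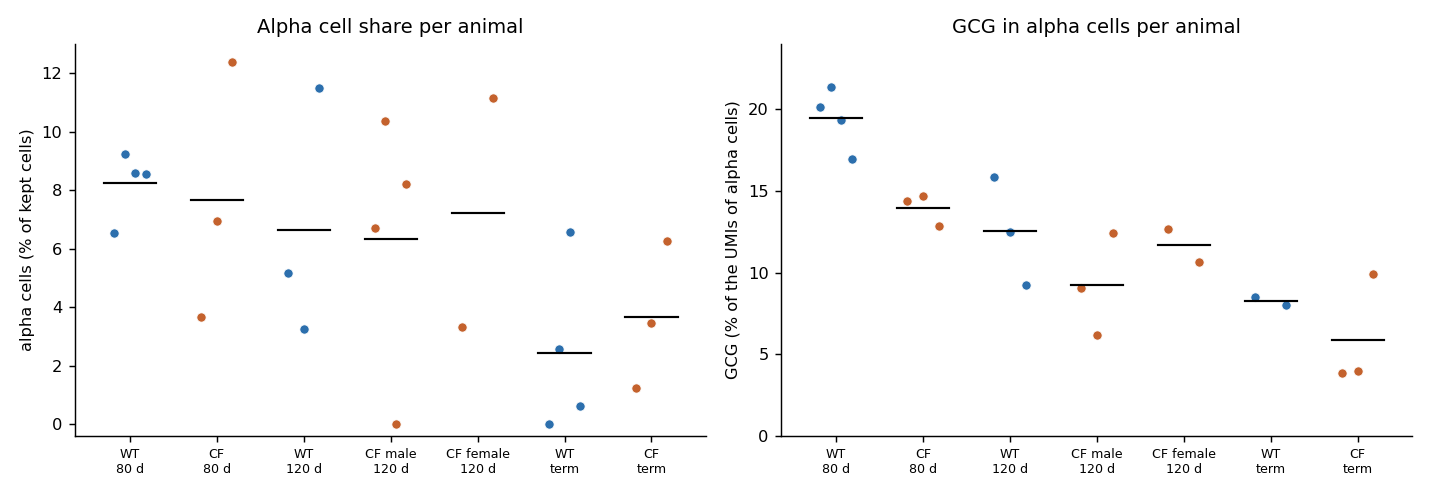
Left, alpha cells as a percentage of kept cells in each of 23 animals; right, GCG as a percentage of the UMIs of alpha cells in the 20 animals with at least 20 alpha cells. Points are animals, black lines are group means, blue is WT and orange CF; GCG percentages lie between 12.8 and 21.4 at 80 days and between 3.84 and 9.90 at term, while the cell shares of the groups overlap.

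The shares of alpha cells overlapped between the groups compared, and the exact tests between pairs of groups could not decide whether they differ. Of the kept cells, alpha cells made up 6.55%, 9.23%, 8.59% and 8.56% in WT and 3.67%, 6.95% and 12.4% in CF fetuses at 80 days. At 120 days the shares were 5.15%, 3.24% and 11.5% in WT, 6.70%, 10.4%, 0% and 8.22% in CF males and 3.31% and 11.1% in CF females. At term they were 0%, 2.57%, 6.56% and 0.631% in WT and 1.22%, 3.45% and 6.26% in CF lambs. Shares of 0% occurred at 120 days and at term, and the lowest WT fetus at 80 days (6.55%) lay beside the highest WT animal at term (6.56%). The WT term group was lower than WT at 80 days by 3.28 on the log2 scale (exact two-sided permutation p = 0.0571, adjusted p = 0.4 over 7 comparisons, n = 4 and 4), and by 1.88 without the animal that had no alpha cell. The limit of 10000 CPM of GCG was the same at each age. The 10th percentile of GCG in alpha cells was 39814 to 94341 CPM in WT at 80 days. In donors 2, 3 and 4 of WT at term it was 35347, 24991 and 11870. How many more cells the limit left out at term was not tested. CF against WT within ages gave a log2 difference of 0.24 (exact permutation p = 0.764, adjusted p = 0.891, 23 animals). This is the mean of -0.261 at 80 days, -0.844 at 120 days and 1.83 at term, which differ in sign. Of the designs here, 3 against 4 animals cannot go below an exact p of 0.0571 and 3 against 3 not below 0.1, and 4 against 4 not below 0.0286, and each value also reflects which part of the organ was digested and which cells survived.

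The alpha share of the endocrine cells spread most at term. It ranged from 48.4% to 53.7% in WT and 50.8% to 56.7% in CF fetuses at 80 days, from 57.2% to 71.1% in WT, 53.2% to 72.3% in CF males and 74.8% to 77.2% in CF females at 120 days. At term it was 41.1%, 71.2% and 16.1% in WT and 13.0%, 50.8% and 81.4% in CF lambs. WT fetuses at 120 days did not overlap with those at 80 days (log2 difference 0.39, exact permutation p = 0.0571, adjusted p = 0.4, n = 3 and 4). This p is the smallest that 3 against 4 animals allow. CF against WT within ages differed by 0.05 on the log2 scale (exact permutation p = 0.813, adjusted p = 0.949, 21 animals). PP cells made up 7.78% to 13.9% of endocrine cells in CF and 0% to 1.74% in WT fetuses at 120 days, given as values without a test. They were picked by PPY, and the kept cells outside the endocrine group also held more PPY in CF (748 to 10792 CPM) than in WT (61.9 to 620) at that age, whose part in this share was not tested.

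CFTR, the targeted gene, was barely detected in alpha cells. It averaged 4.34 CPM there and 42.0 in the kept cells outside the endocrine group. The log2 difference between CF and WT alpha cells was 0.13 at 80 days (SE 0.43, adjusted p = 0.947), 1.22 in males at 120 days (SE 0.51, adjusted p = 0.756) and -1.22 at term (SE 0.70, adjusted p = 0.68). Since the edit lies in an early exon and the libraries read the end of the transcript, these counts do not check the genotype label. Here and below, levels of single genes are CPM after TMM scaling, differences are log2 fold changes from edgeR's quasi-likelihood test over 11620 genes, and a gene was called at an adjusted p of at most 0.05. The 7 genes of the rule were left out of the fit.

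Between 80 and 120 days, WT alpha cells gained a small set of genes led by SERPINA1, the protease inhibitor alpha-1 antitrypsin, and KLF9, a transcription factor induced by glucocorticoids. The test called 129 genes (1.11% of those tested), 95 higher (0.818%) and 34 lower (0.293%) at 120 days. SERPINA1 was at 170, 55.2, 71.0 and 33.1 CPM at 80 days and at 679, 468 and 290 at 120 days, so the groups did not overlap (log2 difference 2.54, SE 0.52, adjusted p = 0.0320). KLF9 was at 5.86, 5.57, 3.01 and 2.90 CPM and then at 20.3, 27.5 and 22.9 (log2 difference 2.42, SE 0.40, adjusted p = 0.00571). KLF9 also rose in CF males, from 2.26, 1.76 and 3.46 CPM to 17.0, 13.1 and 30.3 (2.89, SE 0.43, adjusted p = 0.00100).

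The other named genes that rose were MTBP (an MDM2-binding protein, 1.74), RNF39 (1.97), BHLHE40 (a clock and hypoxia factor, 1.58), TPPP3 (1.58), NOL3 (an inhibitor of apoptosis), the glycolytic enzyme ALDOC (1.33), HMGCS1 of cholesterol synthesis (1.28) and the phospholipase PLA1A (1.25). NOL3 went from 7.33, 9.12, 10.3 and 8.12 CPM to 24.8, 26.1 and 23.6, with adjusted p = 0.00749. Genes that fell included SEMA3C, a secreted guidance cue, from 171, 128, 112 and 130 CPM to 54.1, 56.5 and 59.5 (-1.25, SE 0.22, adjusted p = 0.00642). The glutamine transporter SLC38A5 fell from 581, 412, 360 and 357 CPM to 215, 222 and 163 (-1.10, SE 0.25, adjusted p = 0.0295). The remaining named genes that fell were the potassium channel partner DPP6 (-1.48), ZNF804A (-1.10), the neuregulin receptor ERBB3 (-1.08), SLC41A2 (-1.03), the Wnt acyltransferase PORCN (-0.99), PARP8 (-0.98), the polarity protein LLGL1 (-0.94) and the cAMP sensor RAPGEF4 (-0.93). Of these 20 genes, KLF9, NOL3 and SEMA3C were called whichever single animal was left out. The count fell to 23 to 41 genes when donors 2, 3 or 4 of WT at 80 days or any animal of WT at 120 days was left out, and to 1 gene without the HZ fetuses, a setting that leaves 2 animals at 80 days.

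Term alpha cells differed from those at 80 days in many more genes, with 680 called in WT (5.85%), 467 higher (4.02%) and 213 lower (1.83%). Several of the named genes were hardly seen in the fetus. DAPL1, a death-associated protein relative, was at 0.37, 0, 1.72 and 0.29 CPM in WT at 80 days and at 19.3 and 33.8 at term (5.42, SE 0.84, adjusted p = 0.00101), and in CF at 0, 0.25 and 0.42 and then at 108, 27.7 and 16.0 (7.16, SE 0.89, adjusted p = 4.12e-05). It was still at 0 to 0.88 CPM in all 8 fetuses of 120 days, so the step lay between 120 days and term. KLF9 reached 90.5 and 35.4 CPM in WT (3.86, SE 0.40, adjusted p = 9.01e-06) and 178, 112 and 91.6 in CF (5.54, SE 0.42, adjusted p = 2.58e-07). SERPINA1 reached 663 and 1069 CPM in WT (3.39, SE 0.56, adjusted p = 0.00260), and in CF it went from 19.2, 6.55 and 17.6 to 534, 435 and 876 (5.44, SE 0.67, adjusted p = 9.58e-05).

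CEACAM16, an adhesion glycoprotein, rose from 2.20, 2.03, 1.29 and 2.61 CPM to 28.1 and 21.8 (3.55, SE 0.45, adjusted p = 5.19e-05). The class II phosphoinositide 3-kinase PIK3C2G was at 1.10, 6.08, 3.01 and 4.06 CPM at 80 days and at 25.6 and 25.0 at term (2.85, SE 0.40, adjusted p = 0.000150). VWA3B rose by 2.60, LECT1 (chondromodulin) by 3.91, MESP2 by 2.91 and the potassium channel subunit KCNG2 by 2.51. The copper oxidase ceruloplasmin (CP) had no UMI in the WT alpha cells at 80 days and stood at 72.4 and 0.52 CPM at term, while the CF lambs had 316, 360 and 74.8. Its call in WT rested on 1 animal, since it was lost without donor 2 at term and also without donor 2, 3 or 4 at 80 days. The calls of LECT1 and MESP2 were lost without donor 3 at term and that of KCNG2 without donor 2.

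On the falling side stood ENHO, which encodes the peptide adropin, at 64.1, 60.3, 64.1 and 67.0 CPM at 80 days and 8.74 and 14.0 at term (-2.47, SE 0.38, adjusted p = 0.000456). It fell in CF as well, from 86.5, 63.8 and 82.4 to 2.47, 10.4 and 17.9 CPM (-2.74, SE 0.34, adjusted p = 1.35e-05). BASP1, a membrane protein of growing axons, fell by 2.33 on the log2 scale, the phospholipase PLD1, which acts in membrane traffic, by 2.35, and C3H12orf75 by 1.77. SYCE1L (-3.25), GULP1 (-2.21), RAB3B (-2.15), ADGRB3 (-1.97), CITED2 (-1.96) and DPP6 (-1.96) completed the named genes. Of the 20 genes, DAPL1, KLF9, CEACAM16, SERPINA1, PIK3C2G, VWA3B, ENHO, PLD1, BASP1 and C3H12orf75 stayed called whichever animal was left out. The count was 399 without donor 2 at 80 days and 454 to 767 in the other cases. With donor 2 or 3 at term left out, 1 WT animal remained at term, which was then assumed to vary like the animals of the other groups.

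From 120 days to term in WT, 184 genes were called (1.58%), 117 higher (1.01%) and 67 lower (0.577%). CPT1A, which passes fatty acids into mitochondria, was at 3.38, 1.45 and 6.19 CPM at 120 days and at 15.6 and 48.4 at term (2.78, SE 0.54, adjusted p = 0.0137). PLCB1, a phospholipase C, rose by 2.61, PIK3C2G by 2.37, CEACAM16 by 2.05, VWA3B by 2.00, AK6 by 1.98 and the vault protein MVP by 1.71, and LECT1 by 4.04. OLA-I, a class I histocompatibility gene, rose by 2.43, but its family is made of near-identical copies between which reads may have been split. The falling genes included ENHO (-2.07), PEG10 (-1.82), the ubiquitin ligase MKRN1 (-1.75), SOGA3 (-1.72), DBNDD1 (-1.70), DNAL1 (-1.58), the sodium channel SCN9A (-1.54), CCDC171 (-1.53) and the activin-type receptor ACVR1C (-1.49). Named genes called whichever animal was left out were PIK3C2G, ENHO, PEG10 and MKRN1, and the count rose to 612 without donor 2 at term and fell to 50, 99 and 92 without donors 1, 2 and 3 at 120 days.

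The CF animals gave an independent set of the same ages, since they share no animal with the WT comparisons. CF males at 120 days against CF at 80 days gave 721 called genes (6.2%), 459 higher (3.95%) and 262 lower (2.25%), and CF at term against 80 days gave 1902 (16.4%), 1017 higher (8.75%) and 885 lower (7.62%). Of the 95 genes higher in WT at 120 days, 71 were also called higher in CF males (74.7% of the WT genes, 15.5% of the CF genes), and of the 34 lower genes 14 were called lower (41.2% and 5.34%). SLC40A1, which exports iron, was called in opposite directions, rising in WT and falling in CF. Of the 467 genes higher in WT at term, 289 were also called in CF (61.9% and 28.4%), of the 213 lower ones 123 (57.7% and 13.9%), and none was called the opposite way. The CF count at 120 days fell to 181, 250, 218 and 440 without donors 2 and 3 at 80 days and donors 2 and 4 at 120 days, and that at term to 1069 and 1195 without donors 2 and 3 at 80 days.

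**Figure D3:**
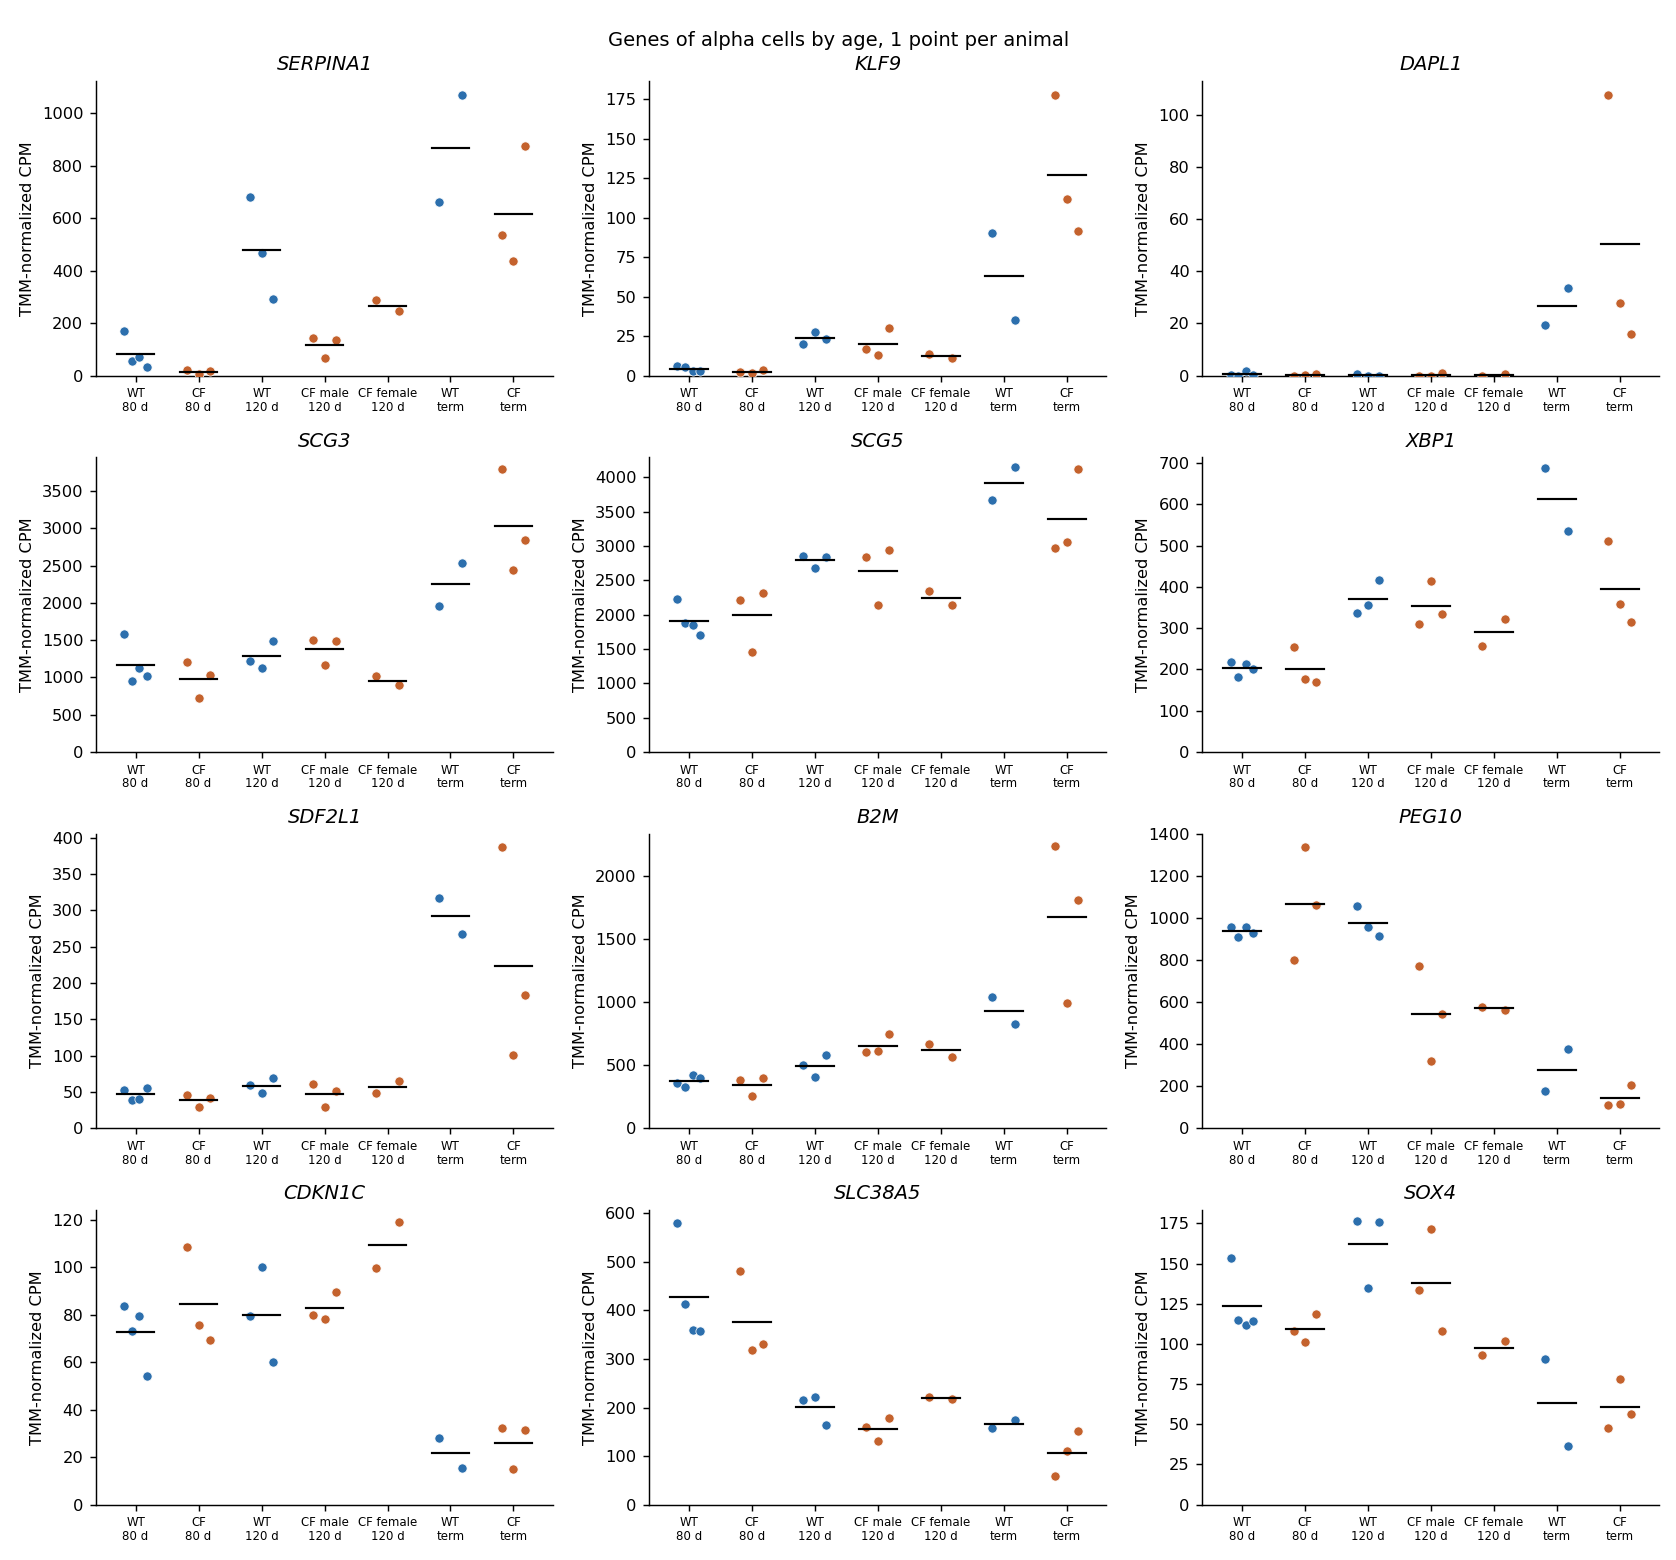
TMM-normalized CPM (y axis, from 0) of 12 genes in alpha cells of 20 animals, grouped by age and genotype (x axis); points are animals, black lines group means, blue WT and orange CF. SERPINA1, KLF9, DAPL1, SCG3, SCG5, XBP1, SDF2L1 and B2M are highest at term, and PEG10, CDKN1C and SOX4 are lowest there in both genotypes; SLC38A5 is already lower at 120 days than at 80 days.

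The lists below sort genes by their role in alpha cells, and their medians stand beside the median of all genes. That was 0.03 in WT and 0.02 in CF for term against 80 days. Of all genes, 4.02% were called higher and 1.83% lower in WT, and 8.75% and 7.62% in CF. The lists were chosen with earlier results of these data known, so their counts and medians are a description and no test of a trend. Among 12 tested alpha cell transcription factors none rose, and 3 fell in WT (RFX3, PAX6 and FOXA2; list median -0.66) and 5 in CF (NEUROD1, IRX1, RFX3 and PAX6 among them; list median -0.70). PAX6, which binds the GCG promoter, was at 178, 122, 129 and 132 CPM in WT at 80 days and at 95.5 and 53.0 at term (-0.92, SE 0.24, adjusted p = 0.0214). NEUROD1 fell in CF by 1.09 and IRX1 by 1.28 on the log2 scale. IRX2 is outside these counts and medians, since lists were matched by symbol and it stands under its gene number LOC101102588. It was at 327, 320, 324 and 273 CPM in WT at 80 days and at 199 and 234 at term (-0.52, SE 0.18, adjusted p = 0.0976), and in CF at 325, 362 and 342 and then at 138, 153 and 216 (-1.01, SE 0.17, adjusted p = 0.000316). With 1 animal left out, the WT calls of RFX3, PAX6 and FOXA2 were lost in 1, 2 and 3 of 6 cases, each time including donor 3 at term. In CF those of PAX6 and RFX3 were lost in 4 and 2 of 6 cases, while NEUROD1 and IRX1 stayed called.

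Of 19 tested genes of prohormone processing and granule release, 3 rose and 2 fell in WT and 5 rose and 4 fell in CF, with list medians of 0.35 and 0.01. SCG5, the chaperone of PCSK2, was at 2221, 1878, 1852 and 1703 CPM in WT at 80 days and at 3669 and 4155 at term (1.03, SE 0.20, adjusted p = 0.00266). SCG3, which sorts granins into granules, rose by 0.94 in WT (SE 0.23, adjusted p = 0.0164) and by 1.62 in CF (SE 0.23, adjusted p = 4.52e-05), and SCG2 by 0.88 and 1.44, while CHGB differed by 0.01 in WT (adjusted p = 0.994) and -0.84 in CF (adjusted p = 0.232). PAM, the peptide amidating enzyme, and SNAP25, of the fusion machinery, rose in CF. RAB3B, a GTPase of granule docking, fell in both genotypes, from 27.1, 25.3, 21.1 and 23.2 to 6.24 and 4.68 CPM in WT (-2.15, SE 0.44, adjusted p = 0.00436) and from 37.3, 38.8 and 40.4 to 0, 5.77 and 2.29 in CF (-4.01, SE 0.45, adjusted p = 4.05e-06). CADPS, which primes granules, fell in WT, and UCHL1, STX1A and RAB27A fell in CF. SCG5 stayed called in WT whichever animal was left out, SCG3 was lost without donor 2 at 80 days or donor 3 at term, SCG2 in each of the 6 cases, and RAB3B and CADPS without donor 3 at term.

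Among 19 tested genes of nutrient sensing, channels and receptors, GIPR rose and SLC38A5 fell in both genotypes. The calcium channel CACNA1D rose and the receptors GLP1R and SSTR1 fell in CF and were not called in WT. The interaction test of edgeR, which compares the change from 80 days to term between genotypes, called none of the 3 (adjusted p = 0.774 for CACNA1D, 0.190 for GLP1R and 0.906 for SSTR1), so their changes were not shown to differ. GIPR, through which the gut hormone GIP stimulates glucagon release, was at 30.0, 27.4, 25.8 and 23.5 CPM in WT at 80 days and at 48.1 and 41.6 at term (0.75, SE 0.21, adjusted p = 0.0394), and in CF at 19.2, 17.9 and 26.3 and then at 52.6, 39.2 and 48.5 (1.13, SE 0.21, adjusted p = 0.000645). The CF call of CACNA1D was lost in 5 of 6 cases with 1 animal left out, that of SSTR1 in 4 and that of GLP1R in 3. The WT call of GIPR was lost in 5 of the 6 cases with 1 animal left out and its CF call in none. The alpha cell list headed secreted and surface genes also holds genes of other proteins, such as RGS4 and KCTD12. Of its 15 tested genes, 1 rose (SERPINA1) and 1 fell (RGS4) in WT, and 2 rose (SERPINA1 and TM4SF4) and 4 fell (SLC7A2, RGS4, KCTD12 and TMEM45B) in CF. Of all genes 4.02% rose in WT and 8.75% in CF, and the rising counts of both lists in this paragraph are near these shares. TM4SF4 was not above the other kept cells of the CF lambs (464 against 494 CPM of all UMIs). TTR was not called, with a difference of -0.09 in WT (SE 0.33, adjusted p = 0.909) and -0.51 in CF (SE 0.31, adjusted p = 0.284).

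Of 12 tested progenitor and immature genes, 1 fell in WT and 5 in CF. They were SOX4 in WT (-0.97, SE 0.28, adjusted p = 0.0380) and MDK, SOX11, HES6, RUNX1T1 and SOX4 in CF, with none rising, 4 and 3 members positive and medians of -0.57 and -0.66. MDK, the heparin-binding growth factor midkine, was at 171, 53.7 and 43.7 CPM in CF at 80 days and at 0.82, 9.23 and 6.49 at term (-3.98, adjusted p = 0.00290). Averaged over all animals tested, MDK was lower in alpha cells (34.5 CPM) than in the kept cells outside the endocrine group (135 CPM). Of 13 tested imprinted genes 3 fell in WT (CDKN1C, PEG10 and IGF2; median -0.68) and 4 in CF (PEG10, CDKN1C, MAGEL2 and NNAT; median -0.90). CDKN1C, an inhibitor of cell division, was at 83.5, 72.9, 79.6 and 54.2 CPM in WT at 80 days and at 28.1 and 15.6 at term (-1.74, SE 0.30, adjusted p = 0.00112). PEG10, derived from a retrotransposon, was at 956, 908, 957 and 931 CPM and then at 177 and 374 (-1.77, SE 0.34, adjusted p = 0.00294), and in CF at 799, 1339 and 1063 and then at 110, 113 and 205 (-2.89, SE 0.31, adjusted p = 4.09e-06). Stromal markers summed to 46.3 to 525 CPM in the alpha cells of WT at 80 days and to 5.20 to 52.8 at term. The part of stromal RNA in the falling genes was not tested. Calls of CDKN1C and PEG10 held in both genotypes whichever animal was left out, while SOX4 in WT was lost in 5 of 6 cases and IGF2 in 5 of 6, and SOX4 and NNAT in CF in 3 of 6.

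Of 15 tested genes of protein folding in the endoplasmic reticulum, 6 rose at term in WT (DNAJC3, XBP1, SDF2L1, PDIA4, PDIA6 and MANF; median 1.15) and 3 in CF (SDF2L1, DNAJC3 and XBP1; median 0.81). XBP1, a transcription factor of secretory capacity, was at 217, 181, 213 and 202 CPM in WT at 80 days, at 337, 357 and 417 at 120 days and at 688 and 537 at term (1.59, SE 0.21, adjusted p = 5.31e-05). SDF2L1, a cochaperone, was at 52.0, 39.0, 39.6 and 55.1 CPM and then at 317 and 267 (2.64, SE 0.36, adjusted p = 0.000325). The WT call of MANF was lost in all 6 cases with 1 animal left out. In CF SDF2L1 rose by 2.54 (SE 0.37, adjusted p = 0.000194). Each of these called genes was lower in alpha cells than in the kept cells outside the endocrine group at term, for example SDF2L1 with 228 against 558 CPM in WT, and acinar marker RNA was higher in the same animals. The 10 measured acinar markers, the digestive enzymes and their partners, summed to 361 to 1015 CPM in the alpha cells of WT at 80 days, 1679 to 6884 at 120 days and 9498 to 22796 at term, where the other kept cells held 78595 to 92151. Of them 7 of 10 were called higher in WT at term (median 4.03) and 2 of 10 in CF (median 2.31), where the sum was 333 to 429 CPM at 80 days and 817 to 4923 at term. The WT count was 2 to 8 with 1 animal left out: 5 of the 7 calls were lost without donor 2 at term and 3 without donor 1, 2 or 4 at 80 days, and CTRC and SYCN stayed called in each case. The part of acinar RNA in the folding genes was not tested.

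Of 14 tested genes of antigen presentation and inflammation, 2 rose in WT (B2M and IRF1; median 0.24) and 6 in CF (B2M, SOCS3, PSMB8, IRF1, NFKBIA and IFI6; median 1.79). B2M, the light chain of class I histocompatibility molecules, was at 361, 328, 424 and 400 CPM in WT at 80 days and at 1039 and 825 at term (1.30, SE 0.24, adjusted p = 0.00222). In CF B2M went from 381, 254 and 398 to 2239, 991 and 1809 CPM (2.29, SE 0.25, adjusted p = 2.20e-06), and both B2M and IRF1 were higher in alpha cells than in the other kept cells at term. PSMB8 and NFKBIA were not, with 7.02 and 32.7 CPM of all UMIs in CF alpha cells at term against 19.1 and 107 in the other kept cells. Immune markers summed to 4.20 to 104 CPM in the alpha cells of all animals, and the call of IRF1 in WT was lost without donor 3 at term, while those of NFKBIA and IFI6 in CF were lost in 3 and 4 of 6 cases. The heat shock genes HSPA8, DNAJB1 and HSPH1 fell and BTG2, ZFP36 and JUND, which respond to tissue dissociation, rose in CF, and 0 of 18 of that list were called in WT by edgeR or DESeq2, with 1 higher at an unadjusted p under 0.05. The interaction test called none of these 6 genes (adjusted p from 0.277 for HSPA8 to 0.783 for ZFP36), so their changes were not shown to differ between genotypes. Of the CF calls HSPA8 held whichever animal was left out, HSPH1 was lost in all 6 cases, ZFP36 in 4 and BTG2, DNAJB1 and JUND in 3.

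**Figure D4:**
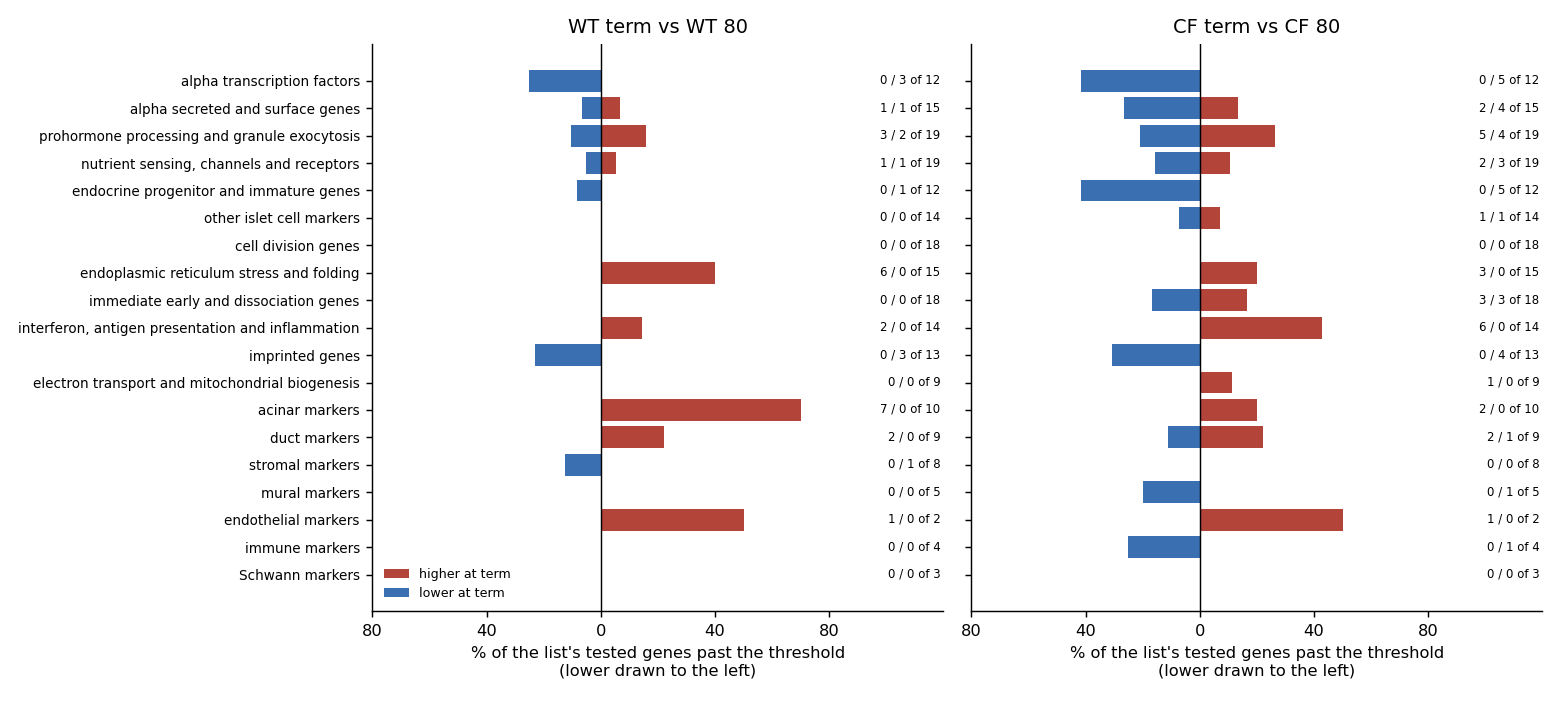
Percentage of each gene list's tested members called higher (red, right) or lower (blue, left) at term than at 80 days in WT and in CF alpha cells, with the counts higher / lower of tested beside the bars. Transcription factors, progenitor and imprinted genes have only lower calls, folding, antigen presentation and acinar lists only higher ones, against 4.02% higher and 1.83% lower of all genes in WT and 8.75% and 7.62% in CF. The lists were chosen with earlier results of these data known.

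Of the 18 cell division genes none was called at term in either genotype by edgeR or DESeq2, and 0 had an unadjusted p under 0.05 (list medians 0.44 and 0.91). After thinning each alpha cell to 3000 UMIs, the share with at least 3 of these genes detected was 5.42%, 10.1%, 5.43% and 7.48% in WT at 80 days and 5.93% and 6.57% at term (log2 difference -0.15, exact permutation p = 0.8, n = 4 and 2, where the smallest possible p is 0.133). It ran from 1.48% to 3.17% in WT at 120 days, from 3.26% to 9.07%, 0.962% to 2.76% and 0.952% to 5.14% in CF at 80 days, in CF males at 120 days and in CF at term. Without thinning the WT shares were 23.8% to 35.3% and 8.98% to 16.0%, with deeper cells at 80 days (log2 difference -1.26, exact permutation p = 0.133).

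The test of CF against WT called 37 genes at 80 days (0.318%), 4 in males at 120 days (0.0344%), 9 in females at 120 days (0.0775%) and 24 at term (0.207%). At an unadjusted p under 0.05 these comparisons held 1343, 676, 1523 and 1035 genes, against 1598 for WT at 120 against 80 days and 2429 for WT at term against 80 days. The mean over the 3 ages, with the males at 120 days, gave 42 genes (0.361%), 16 higher (0.138%) and 26 lower (0.224%) in CF. Leaving out donor 2 or 3 of WT at term gave 144 and 67, donor 3 of CF at term 90, donor 3 of WT at 120 days 67, donor 1 of the CF males 66, and donor 3 of CF at 80 days 27. Several genotype and age comparisons share animals, so their calls are not independent. For example, MTBP was named both as rising in WT at 120 days and as lower in CF.

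MTBP was lower in CF in the mean over ages by 1.44 on the log2 scale (SE 0.22, adjusted p = 0.00326). It was at 16.9, 12.2, 9.47 and 11.6 CPM in WT and 6.22, 5.54 and 9.68 in CF at 80 days, at 53.5, 60.9 and 19.9 in WT and 8.79, 8.35 and 7.92 in CF males at 120 days, and at 13.1 and 18.2 in WT and 5.76, 9.23 and 5.72 in CF at term. WT and CF overlapped slightly at 80 days (9.47 in WT against 9.68 in CF). WT did not overlap with the CF males at 120 days or with CF at term. The CF females are not part of the mean over ages. BACE2, an aspartic protease, was lower by 1.12 (SE 0.16, adjusted p = 0.00205). At 80 days WT had 175, 90.2, 105 and 86.4 CPM and CF 36.2, 27.5 and 28.8 (-1.91, SE 0.26, adjusted p = 0.000811). At 120 days it was at 73.2, 128 and 96.5 CPM in WT, 53.1, 41.2 and 30.3 in CF males (-1.21, SE 0.28, adjusted p = 0.228) and 72.5 and 111 in CF females (-0.06, adjusted p = 0.970). At term BACE2 was at 118 and 170 CPM in WT and 111, 122 and 135 in CF (-0.23, adjusted p = 0.905). PRODH2, which breaks down hydroxyproline, was lower by 1.17 (SE 0.20, adjusted p = 0.0105), with 30.0 and 18.2 CPM in WT and 11.5, 5.77 and 5.34 in CF at term. TEKT2, a ciliary tektin, was lower by 0.76 (SE 0.14, adjusted p = 0.0171). These 4 stayed called whichever animal was left out.

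SERPINA1, which rose with age in both genotypes, was lower in CF in the mean over ages (-1.69, SE 0.33, adjusted p = 0.0443), with -2.53 at 80 days, -2.05 in males at 120 days and -0.49 at term, none of which was called alone. Its call held in 7 of 18 cases with 1 animal left out and was lost without the filter on low counts, with at least 10 cells per animal and with sex in the fit. CTNNAL1 (-0.75), FAM46A (-0.52), TMEM47 (-0.50) and the mitochondrial RNA-binding protein LRPPRC (-0.47) were also lower, with calls that held in 17, 11, 7 and 5 of 18 such cases. TTC21B, a ciliary transport protein, and ARPC1A, a subunit of the actin-branching Arp2/3 complex, were higher in CF by 0.67 (SE 0.13, adjusted p = 0.0216) and 0.55 (SE 0.11, adjusted p = 0.0284), in 16 and 13 of the 18 cases. With the replicate block the calls of these 2 and of CTNNAL1, FAM46A, TMEM47 and LRPPRC were lost. CALCRL, the receptor of adrenomedullin and CGRP, fell outside the naming rule by its low level and was chosen after its values were seen. It was at 0.37, 1.01, 0.43 and 1.45 CPM in WT and 11.9, 14.1 and 10.6 in CF at 80 days, and in the mean over ages it was higher in CF by 2.47 (SE 0.24, adjusted p = 4.53e-06).

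At 80 days SLC40A1, the iron exporter ferroportin, was at 54.8, 42.6 and 65.4 CPM in CF and 18.3, 7.09, 10.8 and 9.86 in WT (2.22, SE 0.30, adjusted p = 0.000658). SPA17 was at 57.1, 35.5 and 39.7 CPM in CF and 117, 127, 114 and 106 in WT (-1.41, SE 0.17, adjusted p = 0.000143). SLC40A1, SPA17 and BACE2 stayed called whichever animal was left out, and at 120 days and term SLC40A1 and SPA17 were not called. TMEM125 (1.51), C2H2orf72 (1.45) and C1H3orf52 (1.42) were also higher, and the neuronal glycoprotein GPM6A (-1.14), the adhesion protein AMIGO2 (-1.11) and the lipid phosphatase SACM1L (-1.05) were lower. The calls of C2H2orf72, C1H3orf52, GPM6A and SACM1L were lost without the HZ fetuses. The count of 37 rose to 253 without donor 1 of the CF fetuses and fell to 9 without donor 2 or donor 3, and it was 24, 13 and 17 without donors 2, 3 and 4 of WT.

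At 120 days TDGF1, the Nodal coreceptor Cripto, had 18.6, 33.3 and 8.26 CPM in WT and 0.18, 0 and 0 in CF males (edgeR adjusted p = 0.0410). It had no UMI in the CF alpha cells at 80 days and at term or in the CF females, while WT had 5.07 to 8.99 CPM at 80 days and 7.49 and 0 at term. In the CF females BBS12 (1.44), ELAVL4 (1.29), C1H1orf123 (1.17) and GLCCI1 (1.08) were higher and CKAP4 (-1.75), PET117 (-1.74) and UBN1 (-1.21) lower than in WT. At term ABAT, which breaks down GABA, was at 31.2, 23.1 and 6.87 CPM in CF and 3.12 and 2.08 in WT (2.90, SE 0.59, adjusted p = 0.0384), and SLC37A4 (2.29), GABPB2 (2.22), ROPN1L (2.00) and the mRNA export factor THOC5 (1.86) were higher. The 5 genes named at term were not called without doublets, with at least 10 cells per animal, with the replicate block or without the HZ fetuses, and TDGF1 and the genes named in CF females were not called with sex in the fit. None of the named genes of these 3 comparisons stayed called in every case with 1 animal left out. At term the count was 115, 50 and 93 without donors 2 and 3 of WT and donor 3 of CF, and 5 and 4 without donors 1 and 2 of CF. At 120 days it was 0 to 5 in the CF males and 0 to 6 in the CF females with 1 animal left out, the 0 coming in edgeR without donor 1 of WT for the males (502 genes at an unadjusted p under 0.05) and without either CF female (954 and 1002).

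**Figure D5:**
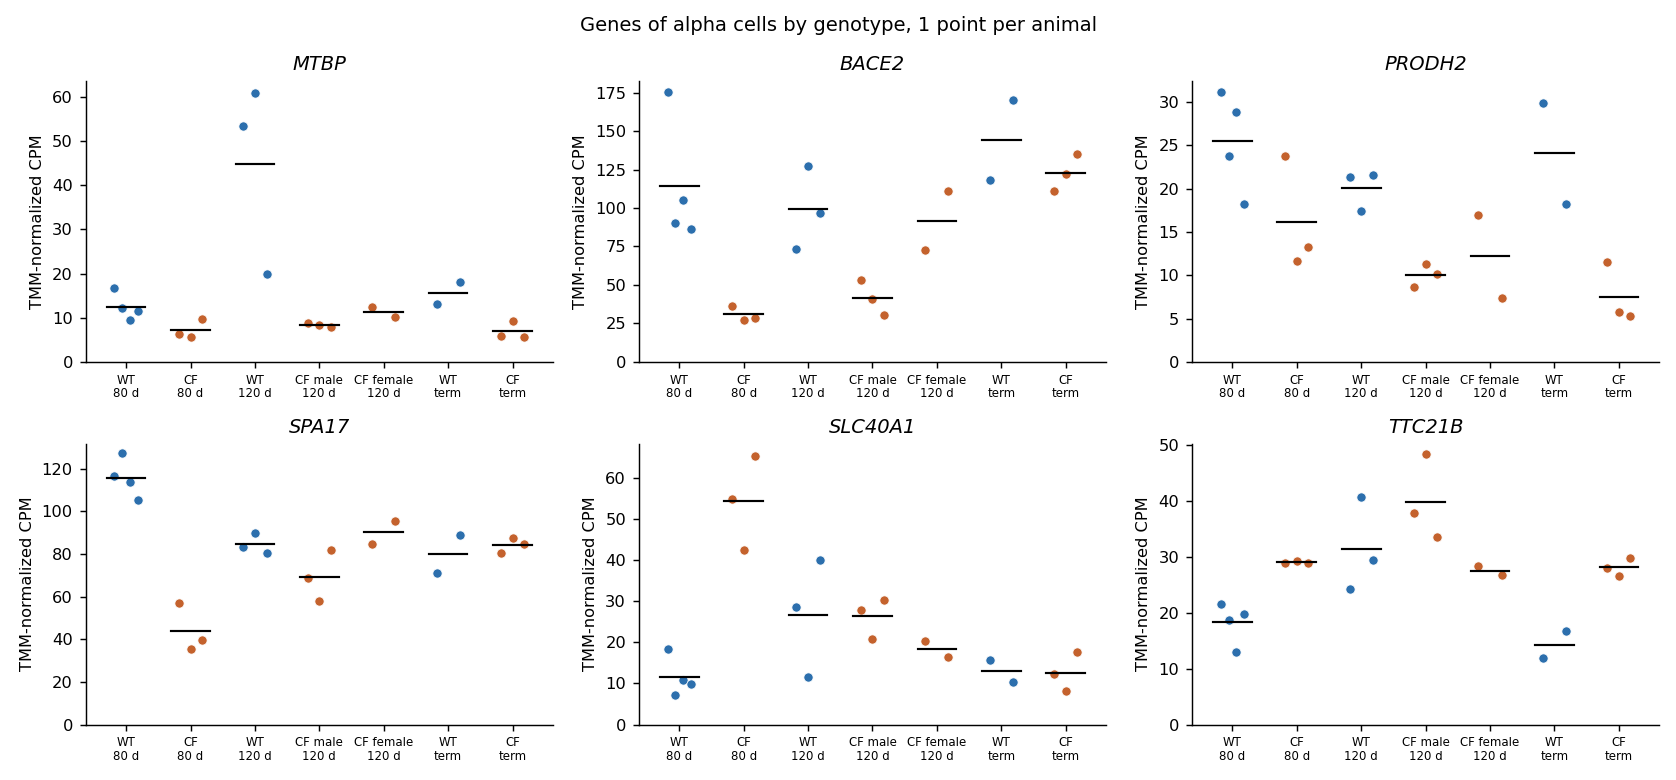
TMM-normalized CPM (y axis, from 0) of 6 genes in alpha cells of 20 animals by age and genotype (x axis); points are animals, black lines group means, blue WT and orange CF. MTBP and PRODH2 have lower means than WT in CF at 80 days, in CF males at 120 days and in CF at term. SPA17 and SLC40A1 separate the genotypes at 80 days, and BACE2 is lower in CF at 80 days and in CF males at 120 days. TTC21B is higher in CF males at 120 days and in CF at 80 days and at term.

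Over the mean of the 3 ages, edgeR called 0 of 12 alpha cell transcription factors, 0 of 19 granule genes, 0 of 19 receptors and channels, 0 of 12 progenitor genes, 0 of 15 folding genes and 0 of 13 imprinted genes, where 0.361% of all genes were called. At an unadjusted p under 0.05 these lists held 4, 0, 4, 1, 2 and 3 genes, beside 1310 of all 11620 genes. DESeq2 called 1 transcription factor and 1 folding gene. Called members were SERPINA1 and FXYD3, lower in CF, of the 15 secreted and surface genes, and SOCS3, a brake on cytokine signals, higher in CF, of the 14 antigen presentation genes. The cell division list had a median of -0.48 with 1 of 18 members positive, and the acinar list -1.60 with 0 of 10 positive, beside a median of 0.00 over all genes. EdgeR called none of these genes, with 1 of 18 and 7 of 10 at an unadjusted p under 0.05, while DESeq2 called 0 and 3.

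RNA of a second hormone was found in alpha cells, in several animals at or below the level of the other kept cells. PPY, the hormone of PP cells, had at least 1 UMI in 16.4% to 56.5% of alpha cells in WT and 38.4% to 59.5% in CF at 80 days, 17.8% to 54.2% in WT, 74.6% to 87.1% in CF males and 66.8% to 72.9% in CF females at 120 days, and 43.7% to 67.3% in WT and 67.4% to 88.7% in CF at term. After thinning to 3000 UMIs the shares at 120 days were 8.89% to 32.9% in WT, 48.8% to 56.3% in CF males and 49.0% to 59.4% in CF females. The CF and WT animals did not overlap at 120 days. The kept cells outside the endocrine group may include hormone cells that missed the CHGA part of the rule. They showed PPY in 2.44% to 8.53% (WT) and 1.00% to 3.98% (CF) at 80 days, but in 39.9% to 65.3% in CF males at 120 days. There their PPY level of 2962 to 10792 CPM exceeded the 1709 to 2721 of alpha cells. The PPY level of alpha cells in CF males at 120 days was thus not above that of the other kept cells, although a larger share of alpha cells held it. The same held for donor 1 of CF at term (1353 CPM against 2442 in its other cells, 67.7% of which held PPY), which gave the 88.7%, for donor 2 of WT at 80 days (84.0 against 158) and for donor 2 of WT at 120 days (469 against 548). At 80 days the alpha cells of the CF fetuses had 230 to 1184 CPM against 2.64 to 28.3 in the other cells. Those of donors 1, 3 and 4 of WT had 2089, 319 and 152 CPM against 69.8, 8.49 and 91.4. SST was found in 4.76% to 26.5% of alpha cells and in 2.34% to 15.6% of the other cells. Its level in alpha cells lay below that of the other cells in each CF fetus at 80 days (7.41, 37.4 and 622 CPM against 259, 694 and 1255). The same held in each WT fetus at 120 days (3.21 to 14.8 against 76.9 to 481) and in WT at 80 days except donor 3. The rule holds SST and PPY below GCG in alpha cells and sets no such limit on the other cells. The level of the other cells is therefore no measure of background. At term it was 1807 and 534 CPM against 114 and 20.0 in WT and 262, 129 and 36.1 against 4.93, 43.8 and 37.7 in CF, with 0.775% to 4.49% of alpha cells above 1000 CPM.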

How the data were processed

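Pancreata of sheep fetuses and newborn lambs were digested with enzymes, strained and run on 10x Genomics 3' single-cell chemistry, and 26 libraries of 23 animals were analysed. Per the labels the authors mapped reads to the Oar_v4.0 assembly and counted UMIs per gene and cell (Cell Ranger 3.1.0), and the deposited matrices hold these raw counts for 24478 genes. INS is not analysed here. Depth ranged from 7841217 to 171256169 UMIs per library.

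Barcodes were kept above 200 and below 6000 genes and below 25% mitochondrial UMIs, and alpha cells were taken by the rule given at the opening. The members and gene lists were chosen with earlier results of these data known. Libraries of the same animal (3 animals had 2) were summed, or averaged for shares. Doublets were not removed in the main analysis, and Scrublet scores (scanpy 1.11.5) served an alternative. The HZ fetuses were grouped with WT, as in the study's methods. Shares were compared as mean log2 percentages (0.5 cells added) by exact two-sided permutation over animals (scipy 1.17.1), adjusted by Benjamini-Hochberg over 7 comparisons per denominator. Summed counts, without the 7 genes of the rule, were fitted in 1 model of 7 groups with edgeR 4.0.16 in R 4.3.3 (TMM, filterByExpr, robust quasi-likelihood), and adjusted p values are Benjamini-Hochberg over 11620 genes. DESeq2 1.42.0 was an alternative, with other limits on GCG and cells, doublets, sex, a replicate block, the HZ fetuses and each animal left out. Leaving out animals without alpha cells and a minimum of 10 cells were chosen after seeing the data.

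Named genes were the 10 (5 for single genotype comparisons) largest changes per direction among called genes with at least 20 CPM in the higher group, at least as high in alpha as in other kept cells, without overlap of the groups (for the mean over ages, the same sign at each age) and with a symbol. Some genes that met this rule or belong to a list are not reported here. Scripts were tested on simulated data. Gene numbers were matched to symbols through RefSeq (ARS-UI_Ramb_v3.0), by which 573 of 8432 unnamed genes got a symbol. Where labels do not state separate pregnancies, p values measure the spread between these animals.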

Additional observations from a re-analysis of the deposited data

Results flagged for a closer look

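In 3 genes 1 WT fetus at 80 days stood apart from the other 3, among 58 sets of values examined, of which chance flags about 1 in 20. The rule needs at least 4 animals, so for gene levels only WT at 80 days could be examined. Outlying animals of the other groups could not be found for single genes. LECT1 was at 0.43 CPM in the lowest fetus and 3.55 in the next. LRPPRC was at 98.8 CPM in the lowest fetus and 108 in the next. MESP2 was at 8.12 CPM in the highest fetus and 1.10 in the next.

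In 4 genes the difference between CF and WT alpha cells at term was not that at 80 days, by edgeR's test of the interaction over 11620 genes (4 called, 0.0344%). TMEM125 differed by -2.70 on the log2 scale (SE 0.45, adjusted p = 0.0240), being higher in CF at 80 days (1.51) and lower at term (-1.19). SPHKAP, which anchors protein kinase A, differed by -2.18 (SE 0.40, adjusted p = 0.0494), with 0.91 at 80 days and -1.26 at term. LOC101113893 differed by 3.16 (SE 0.50, adjusted p = 0.0240), with -1.95 and 1.21. SPA17 differed by 1.48 (SE 0.26, adjusted p = 0.0422), with -1.41 at 80 days and 0.07 at term. The count of 4 was 138 without donor 1 of CF at 80 days, 56 and 17 without donors 2 and 3 of WT at term, 69 without donor 3 of CF at term, and 0 to 7 without another animal.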

How the results depend on the processing

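Every share comparison had an adjusted p above 0.05 under each setting run, with 0.133 the lowest. With the main numbers of animals and 7 comparisons, no comparison between pairs of groups could reach 0.05. For those comparisons the adjusted p values are therefore no check of stability. WT at term against 80 days reached an unadjusted exact permutation p of 0.0286, the smallest 4 against 4 allows. It did so with GCG from 20000, with CHGA from 1 UMI and without doublets. The share of CF males against WT at 120 days turned from -1.30 to 0.52 on the log2 scale without the animals that had no alpha cell, and the share among endocrine cells within ages turned from 0.0467 to -0.00719 with GCG from 5000. With 1 animal left out the share differences ran from -0.995 to -0.0861 (WT, 120 against 80 days), -3.77 to -1.38 (term against 120 days), -4.27 to -1.88 (term against 80 days), -0.691 to 0.183 (CF at 80 days), -2.02 to 0.522 (CF males), 0.431 to 2.82 (CF at term), -0.225 to 0.636 (within ages), -0.145 to 0.302 (endocrine, within ages) and -0.265 to 0.0296 (dividing share).

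Counts of called genes moved more than 1.5 times as follows, and the cause was not tested unless fewer animals or genes entered. WT at 120 against 80 days gave 84 with sex, 1 without the HZ fetuses and 242 with DESeq2. WT at term against 120 days gave 88 with GCG from 20000, 104 without the HZ fetuses and 302 with DESeq2, and against 80 days 442 with sex and 202 without the HZ fetuses. CF at term against 80 days gave 1063 with sex. CF against WT at 80 days gave 63 without a filter, 15 without the HZ fetuses and 97 with DESeq2. The CF males gave 2 with sex, 2 without the HZ fetuses, 11 with the females and 18 with DESeq2. The CF females gave 43 without a filter, 18 with at least 10 cells, 0 with sex (edgeR, 1332 at an unadjusted p under 0.05), 5 without the HZ fetuses and 137 with DESeq2. At term CF against WT gave 42 without a filter, 0 without doublets (891 unadjusted), 1 with GCG from 20000, 0 with at least 10 cells (939 unadjusted), 11 with sex, 1 without the HZ fetuses, 12 without genes higher in other cells and 67 with DESeq2. The mean over ages gave 24 without genes higher in other cells and 129 with DESeq2, and the interaction 19 without a filter, 2 without doublets, 2 with at least 10 cells, 8 with sex, 0 without the HZ fetuses (823 unadjusted) and 59 with DESeq2.

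With the donor number as a replicate block the counts were 13, 98 and 390 for the 3 WT age comparisons in the order above, 275 for CF males at 120 against 80 days, 21 at 80 days, 2 at term, 17 for the mean over ages and 0 for the interaction (900 unadjusted). The numbers are shared only as numbers: in 36 same-numbered pairs the deviations correlated at -0.235 to 0.222 (median -0.0122), with 2 over 0.1. For the CF females the block could not be fitted.

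With 1 animal left out the counts ran from 23 to 117, 50 to 612 and 399 to 767 (WT ages), 181 to 948 and 1069 to 1998 (CF ages), 9 to 253, 0 to 5, 0 to 6 and 4 to 115 (genotype at 80 days, males, females, term), 27 to 144 (mean) and 0 to 138 (interaction). No named gene reversed.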
